A study of Mus musculus with 9 samples.

Results

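The genes described here are Nt5e and 9 others of adenosine handling, out of 24421 rows in the table of gene counts. They are Nt5e, Entpd1 and Entpd5 (nucleotide breakdown), Adora1, Adora2a and Adora2b (adenosine receptors), Slc29a1 (uptake), Ada and Adk (adenosine removal) and Xdh (purine breakdown). The 10 genes were chosen by symbol with their levels in all 3 groups of mice in view. Their values are therefore given as a description, without p-values, and only whether each gene met the call rule is stated. All 10 were among the 15583 genes tested.

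Poly(A) RNA of tdTomato-positive, DAPI-negative kidney cells, sorted by FACS, was sequenced from 9 mice, 3 in each of the groups db/m, db/db-dapa and db/db, with 1 library per mouse, and the labels give the tissue as kidney. All 9 mice were C57BL/6 by label and carried SLC34a1GCE, a tamoxifen-inducible Cre in the locus of the proximal tubular phosphate transporter Slc34a1, together with the R26tdTomato reporter, and all received tamoxifen at 8 weeks of age. The db/db mice, which lack functional leptin receptor (Leprdb) and become obese and diabetic, received vehicle in the drinking water, db/db-dapa mice received dapagliflozin, an inhibitor of the glucose transporter SGLT2, at 1.5 mg/kg/day for 8 weeks, and db/m mice were non-diabetic heterozygotes. The db/db-dapa mice are called treated mice hereafter. The study asked how diabetes and SGLT2 inhibition alter gene expression in proximal tubules. The sex of the mice and what db/m mice drank are not given in the sources used here.

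ATP and ADP that leave cells are cut to AMP by surface NTPDases such as CD39, the product of Entpd1, and AMP is cut to adenosine by CD73, the ecto-5'-nucleotidase encoded by Nt5e. Adenosine then binds receptors of the Adora family or enters cells through equilibrative transporters. Inside the cell, adenosine is either phosphorylated back to AMP by adenosine kinase or deaminated to inosine. The breakdown of inosine leads through xanthine dehydrogenase to urate. In the kidney, CD73 is known on the proximal tubular brush border and on interstitial fibroblasts, and adenosine acting on the receptor encoded by Adora1 constricts the afferent arteriole in tubuloglomerular feedback.

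Library totals, the sums of estimated counts, were 4817670 to 6571539 in db/m, 2733314 to 7635630 in db/db and 6981183 to 9033062 in treated mice, so that every treated library was deeper than every db/m library. Levels are given as CPM, the count relative to the TMM-scaled library size. A count of 3, taken as the floor, equals 1.02 CPM in the shallowest library (db/db 1) and 0.339 CPM in the deepest (treated mouse 3), and covers counting error only. All 10 proximal tubule markers were detected, and their summed level was 13880 to 15940 CPM in db/m, 13630 to 22640 in db/db and 17070 to 22190 in treated mice. The 5 markers of the tubule's S3 segment summed to 396.8 to 622.2 CPM in db/m, above 41.8 to 324.6 in db/db and 181.6 to 294.9 in treated mice. Most of the db/m sum was Slc7a13, at 310.4 to 484.4 CPM. It was at 7.403 to 100.2 CPM in db/db and 35.05 to 124.8 CPM in treated mice. The S3 marker Slc5a1 went the other way in treated mice, at 131.1 to 147.2 CPM against 67.52 to 77.64 CPM in db/m. The part of these differences in the levels of the 10 genes was not tested. Transcripts of other cells were present too: the 10 endothelium markers summed to 57.35 to 265.5 CPM and the 10 markers of macrophages and dendritic cells to 34.84 to 139.3 CPM over the 9 mice. Markers of the thick ascending limb were highest in db/m 3, at 1634 CPM, podocyte markers in treated mouse 1, at 249 CPM, and erythrocyte markers in db/db 2, at 1462 CPM, a sum in which Hba-a1 and Hba-a2 have the same value in each mouse.

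Nt5e and Adora2b were the members with all 3 treated mice above every mouse of both other groups. For Adora2b the margin was narrow, at 1.584 CPM in treated mouse 3 against 1.575 CPM in db/m 1. Both genes are known from other work as targets of hypoxia-inducible factors, whose binding sites hold the letters ACGTG or GCGTG. Their promoters are shown for that reason, from 250 bases before to 50 bases after the transcription start, as given by RefSeq on GRCm38.p6, 5' to 3' on the strand of the gene, with each match to ACGTG or GCGTG on either strand in capitals. The first, on the plus strand, is chr9:88327359-88327658, and the second, also on the plus strand, is chr11:62248734-62249033. The GENCODE annotation starts the Nt5e gene earlier, at 88327197, so that by it the first window lies inside the gene.
Nt5e: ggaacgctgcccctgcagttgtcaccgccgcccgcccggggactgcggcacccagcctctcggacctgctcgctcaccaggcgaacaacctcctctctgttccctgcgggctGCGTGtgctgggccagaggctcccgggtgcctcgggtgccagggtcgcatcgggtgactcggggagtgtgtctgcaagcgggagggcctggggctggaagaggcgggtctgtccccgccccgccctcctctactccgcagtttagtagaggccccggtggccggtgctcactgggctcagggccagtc
Adora2b: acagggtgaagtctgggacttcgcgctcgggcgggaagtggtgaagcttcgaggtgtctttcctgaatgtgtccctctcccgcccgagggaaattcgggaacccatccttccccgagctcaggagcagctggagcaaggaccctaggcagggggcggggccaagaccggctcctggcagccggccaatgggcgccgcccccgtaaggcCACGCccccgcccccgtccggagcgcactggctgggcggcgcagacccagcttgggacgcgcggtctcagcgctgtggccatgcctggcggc
The Nt5e window held 1 match, GCGTG, which begins at base 113 of the window. The Adora2b window held 1 match as well, GCGTG on the minus strand, which reads CACGC from base 209. Of the 18 windows found for 8 members, 12 (66.7%) held at least 1 match, against 43.8% of all 32851 windows in the table, and the windows of 1 gene can overlap. The Entpd5 window held 5 matches. The first of the windows of Slc29a1 and of Adk held 0, but another window of Slc29a1 held 4 and the second window of Adk held 1. Each of the 8 members had a match in at least 1 window. A gene with several windows has more places for a match. The share of all genes with a match in any window was not computed, so nothing is read from this count. Adora2a and Xdh had no window. Such matches describe letters only, and binding was not measured. The study reported hypoxia staining that spread into the outer cortex of db/db mice and was rare in the cortex of treated mice. The part of hypoxia in the levels of these genes was not tested.

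Compared per length of the longest transcript, the 10 genes spanned a wide range, and the order was Entpd5, Adk, Nt5e, Slc29a1, Xdh, Entpd1, Adora2b, Ada, Adora2a and Adora1. Entpd5, an NTPDase of the endoplasmic reticulum that hydrolyses UDP during glycoprotein folding, averaged 82.79 CPM per kb over the 9 mice, with a range of 47.78 to 115.6. Adk followed at 36.61 CPM per kb (29.72 to 43.64), and Nt5e at 12.78 CPM per kb (4.934 to 20.97). These 3 levels did not overlap between mice. Slc29a1 averaged 6.16 CPM per kb (2.297 to 14.83) and Xdh 3.556 CPM per kb (1.742 to 5.686), and from Nt5e downwards each gene overlapped with the next one in the order. The remaining 5 genes were at the bottom of the range: Entpd1 averaged 0.823 CPM per kb, Adora2b 0.710, Ada 0.649, Adora2a 0.363 and Adora1 0.149. All 3 receptors were thus below 1 CPM per kb on average, and Ada was lower than Adk in every mouse.

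**Figure D1:**
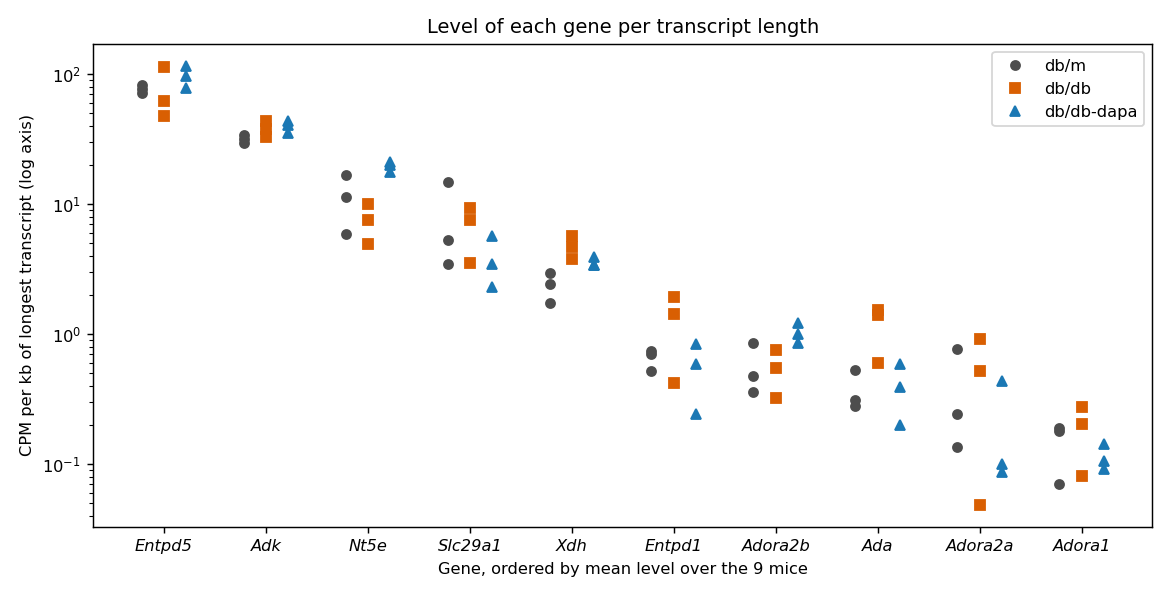
Level of each of the 10 genes in CPM per kb of its longest transcript (log axis), 1 point per mouse, with circles for db/m, squares for db/db and triangles for db/db-dapa. Entpd5, Adk and Nt5e formed 3 separate bands, and the 3 receptors, Entpd1 and Ada lay below 2 CPM per kb in every mouse.

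Nt5e (chromosome 9 of GRCm38, 88327197-88372092, plus strand, the build of all gene positions here) was measured at 45.04, 67 and 23.54 CPM in db/m mice 1 to 3. In db/db mice it was at 19.71, 30.01 and 40.04 CPM. In treated mice it was at 70.55, 83.76 and 79.75 CPM. The treated mice were thus above every other mouse and the most uniform group, whereas db/m mice spread widely and overlapped with db/db mice. Group means were 45.2 ± 21.7 CPM in db/m, 29.9 ± 10.2 in db/db and 78.02 ± 6.77 in treated mice (SD, n = 3 each). The log2 fold change of treated over db/db mice was 1.36 (SE 0.337), that of treated over db/m mice 0.78 (SE 0.33) and that of db/db over db/m mice -0.58 (SE 0.337). Nt5e met the call rule, an adjusted p under 0.1 together with a log2 fold change past 1 in size, in none of the 3 comparisons with edgeR. Without db/db 3 the fold change over db/db mice was 1.64 and the rule was met, as it was with DESeq2 and with limma's voom and quality weights, and without db/db 1 it was 1.15 and the rule was not met.

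Nt5e was lowest in shallow libraries: db/db 1, db/m 3 and db/db 2, which had the 3 smallest totals, also had the 3 lowest levels. Over the 9 mice, log2(CPM + 1) of Nt5e had a Pearson correlation of 0.82 with the log2 total and a Spearman correlation of 0.78 with the total. In 1 pair of libraries of like depth, db/db 3 (total count 7635630) held 40.04 CPM and treated mouse 2 (7626047) 83.76 CPM. Relative to the summed proximal tubule markers, Nt5e was at 2.886, 4.202 and 1.695 CPM per 1000 CPM in db/m, 1.26, 2.202 and 1.768 in db/db, and 4.132, 4.386 and 3.595 in treated mice. On this scale the treated mice remained above all db/db mice and overlapped with db/m mice. Markers of fibroblasts and pericytes, cells that also carry CD73, summed to 27.31 to 45.36 CPM in db/m, 34.41 to 67.45 in db/db and 50.79 to 64.16 in treated mice, without overlap between treated and db/m mice. Most of that sum was Cspg4, at 18.43 to 34.72 CPM in db/m and 42.44 to 48.57 CPM in treated mice, and the other 9 markers summed to 11.5, 10.64 and 8.881 CPM in db/m and 21.72, 4.857 and 3.959 CPM in treated mice, with overlap. The part of depth and of fibroblasts in the Nt5e levels was not tested.

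**Figure D2:**
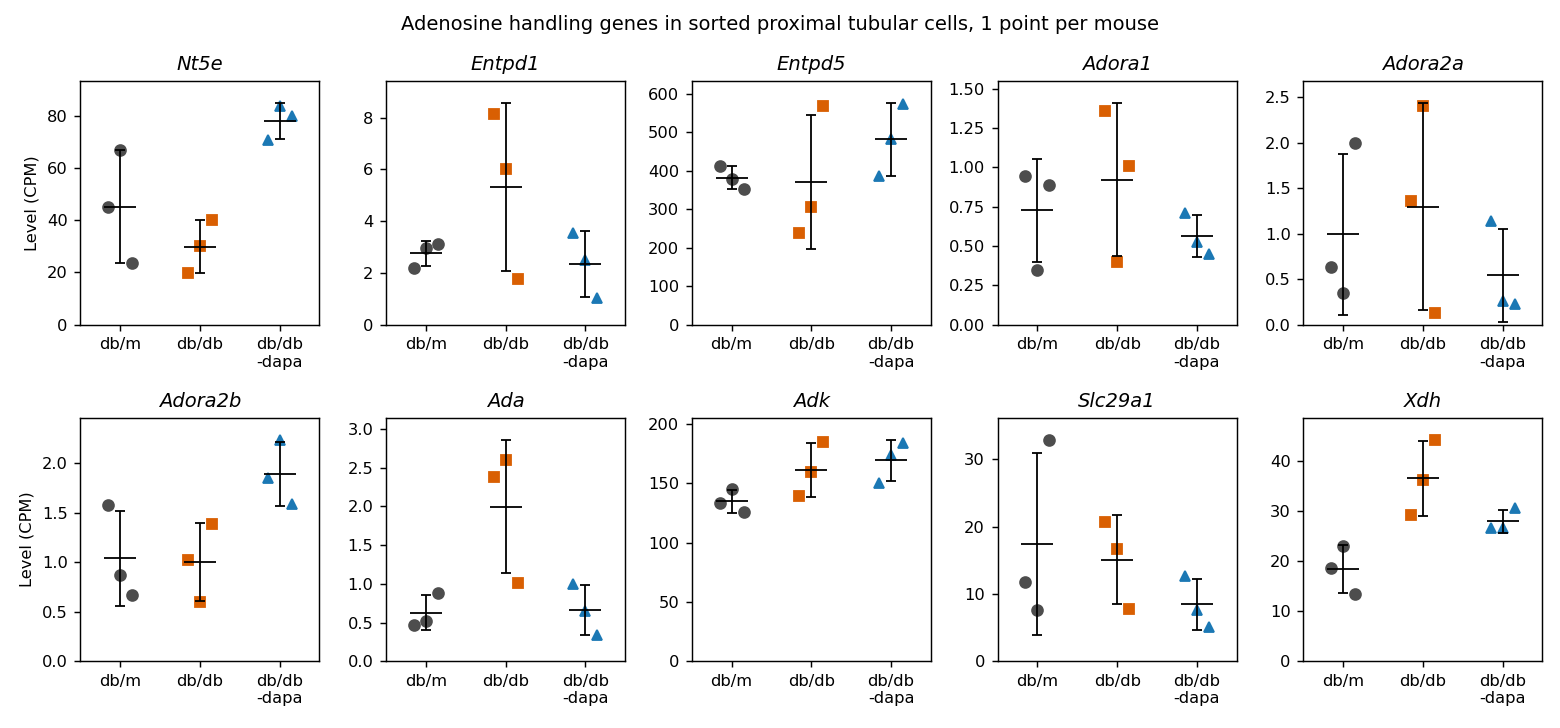
Level of each gene in CPM (linear axis from 0, scaled per panel), 1 point per mouse, with the mean and SD of each group (n = 3) in black. The db/db-dapa mice stood above both other groups for Nt5e (70.55 to 83.76 CPM) and Adora2b, and the db/m mice stood below both other groups for Xdh (13.54 to 23.03 CPM).

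Entpd1 (chromosome 19, 40612366-40741602), which encodes CD39 and is known as an enzyme of endothelial and immune cells, was at 2.205, 2.966 and 3.108 CPM in db/m mice. It was at 8.157, 6.002 and 1.768 CPM in db/db mice and at 3.549, 2.494 and 1.018 CPM in treated mice. The first and second db/db mice were above all other mice and the third was among the lowest, so that the groups overlapped. The log2 fold change was 0.89 (SE 0.589) between db/db and db/m mice and -1.12 (SE 0.583) between treated and db/db mice, and without db/db 1 these values were 0.46 and -0.70. Within each of the 3 groups Entpd1 was lower the deeper the library, and the part of depth was not tested. The endothelium markers summed to 233.2, 265.5 and 89.55 CPM in db/db mice, to 77.17, 81.48 and 193.2 CPM in db/m mice and to 260.6, 71.42 and 57.35 CPM in treated mice. Treated mouse 1 thus had as much of these markers as the first and second db/db mice, with less Entpd1. Relative to their sum, Entpd1 was at 16.09 to 36.4 CPM per 1000 CPM in db/m, 19.75 to 34.99 in db/db and 13.62 to 34.93 in treated mice, with overlap between all groups. In such bulk samples, fewer cells of a type and less RNA per cell cannot be told apart.

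Entpd5 (chromosome 12, 84373857-84409029) was at 412.9, 379.7 and 354.1 CPM in db/m mice. It was at 237.6, 306.3 and 568.6 CPM in db/db mice and at 386.4, 484 and 574.9 CPM in treated mice. The range within db/db mice covered nearly all other mice, and within each of the 3 groups the order of the levels was that of the library totals. Over the 9 mice, log2(CPM + 1) of Entpd5 had a Pearson correlation of 0.94 with the log2 total and a Spearman correlation of 0.97 with the total. The part of depth in the Entpd5 levels was not tested. Log2 fold changes were small, at -0.04 (SE 0.287) for db/db over db/m, 0.33 (SE 0.287) for treated over db/m and 0.38 (SE 0.287) for treated over db/db mice. The sign of the first changed in 4 of 15 alternative fits, and without db/db 3 the last was 0.84, with both remaining db/db mice below all treated mice. As a share of proximal tubule markers, Entpd5 overlapped between all 3 groups as well.

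**Figure D3:**
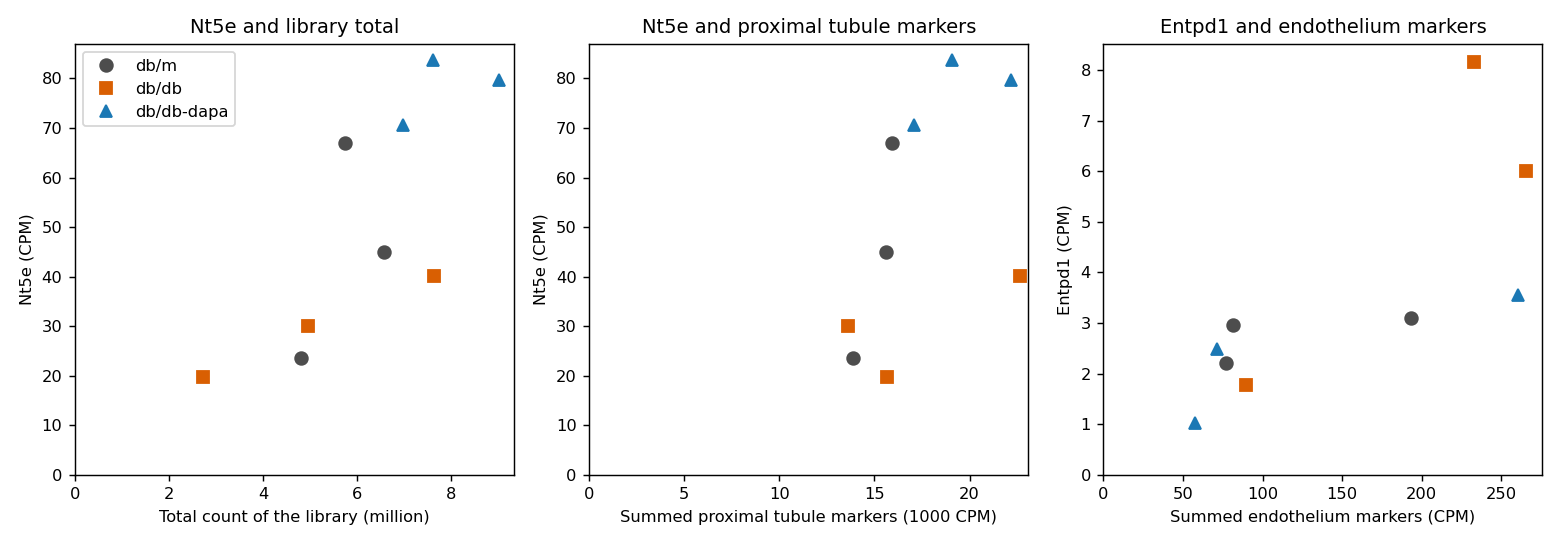
Left and middle, Nt5e in CPM against the total count of the library and against the summed proximal tubule markers in 1000 CPM; right, Entpd1 in CPM against the summed endothelium markers in CPM; 1 point per mouse. Over the 9 mice Nt5e had a Spearman correlation of 0.78 with the total. The db/db 3 library, at a total of 7635630, had 40.04 CPM of Nt5e beside 83.76 CPM in db/db-dapa 2 at 7626047. The 2 highest Entpd1 levels were in db/db mice with 233.2 and 265.5 CPM of endothelium markers, while db/db-dapa 1, with 260.6 CPM of them, had 3.549 CPM of Entpd1.

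The receptors were close to the limit of detection. Adora1 (chromosome 1, 134199223-134235431), the inhibitory receptor of tubuloglomerular feedback, had 1.5 to 8.5 estimated counts per mouse, or 0.349 to 1.359 CPM, and the 3 groups overlapped. Its exons share 1162 bases with Mybph on the opposite strand, and whether the counting used strand is not given in the sources used here. Adora2a (chromosome 10, 75316877-75334784), a stimulatory receptor of vessels and immune cells, had 1 to 12 counts per mouse, or 0.126 to 2.401 CPM. The lowest and the highest of these levels were both in db/db mice, and no group stood apart. The log2 fold changes of both genes had standard errors between 0.67 and 1.02.

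Adora2b (chromosome 11, 62248984-62266453), a stimulatory receptor of low adenosine affinity, had 10, 5 and 3 counts in db/m, 3, 3 and 11 in db/db and 13, 17 and 14 in treated mice. Scaled by library, these were 1.575, 0.872 and 0.666 CPM in db/m mice, 1.02, 0.600 and 1.389 CPM in db/db mice and 1.845, 2.232 and 1.584 CPM in treated mice. The treated mice were above all others, but the lowest of them was ahead of db/m 1 by less than 1 count's worth, at 1.584 against 1.575 CPM. The log2 fold change was 0.86 (SE 0.538) over db/db and 0.82 (SE 0.529) over db/m mice, and the call rule was not met. The treated libraries were also deeper than those of db/m mice, and the part of depth in this low level was not tested.

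Slc29a1 (chromosome 17, 45585200-45599606), which encodes the equilibrative nucleoside transporter ENT1, was at 11.81, 7.677 and 32.86 CPM in db/m mice. It was at 20.73, 16.61 and 7.831 CPM in db/db mice and at 12.63, 7.614 and 5.09 CPM in treated mice. The high value of db/m 3 set the mean of its group, and that library also had the highest levels of markers of the thick ascending limb (1634 CPM) and of the distal convoluted tubule and collecting duct (1567 CPM). The log2 fold change of treated over db/m mice was -1.04 (SE 0.537), but -0.23 without db/m 3. Between db/db and db/m mice it was -0.23 (SE 0.535), but 0.58 without db/m 3, a change of direction. Relative to the endothelium markers, the 3 db/db mice (62.55 to 88.92 CPM per 1000 CPM) were below the 3 db/m mice (94.22 to 170.1), whereas the unscaled levels overlapped. An antisense gene, Gm17080, shares 275 bases with its exons.

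Adenosine kinase and adenosine deaminase, which remove adenosine by separate routes, differed widely in level. Adk (chromosome 14, 21052574-21448569) was at 133.4, 145.5 and 126.1 CPM in db/m mice, 139.7, 159.7 and 185.2 CPM in db/db mice and 150.5, 173.8 and 184 CPM in treated mice. Relative to its level it had the narrowest range of the 10 genes over the 9 mice, and the treated mice lay above the db/m mice without overlap at a log2 fold change of 0.33 (SE 0.167). Relative to the proximal tubule markers this separation was gone, with 8.547 to 9.126 CPM per 1000 CPM in db/m and 8.296 to 9.101 in treated mice. Ada (chromosome 2, 163726584-163750239), an enzyme abundant in lymphoid cells, had 3 to 13 counts per mouse. It was at 0.472, 0.523 and 0.888 CPM in db/m mice, 2.379, 2.601 and 1.01 CPM in db/db mice and 0.994, 0.656 and 0.339 CPM in treated mice.

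All 3 db/db mice were above all others in Ada, db/db 3 only narrowly, at 1.01 CPM against 0.994 CPM in treated mouse 1. The log2 fold change of Ada was 1.62 (SE 0.654) for db/db over db/m and -1.54 (SE 0.623) for treated over db/db mice, with no call by edgeR, and a call by voom with quality weights in the latter. Leukocyte markers were also high in the first and second db/db mice: those of macrophages and dendritic cells summed to 139.3, 119.2 and 53.93 CPM in db/db mice, against 53.07 to 110.1 in db/m and 34.84 to 80.77 in treated mice. Relative to that sum, Ada was at 17.07 to 21.81 CPM per 1000 CPM in db/db mice, above 4.292 to 16.74 in db/m and 9.74 to 12.3 in treated mice. Markers of T and B cells summed to 24.47, 24.61 and 9.852 CPM in db/db mice, and to 17.8 to 23.31 in db/m and 10.24 to 14.34 in treated mice. Their part in the Ada level was not tested.

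Xdh (chromosome 17, 73883895-73950196), whose product turns hypoxanthine and xanthine into urate, was at 18.74, 23.03 and 13.54 CPM in db/m mice. It was at 29.23, 36.21 and 44.21 CPM in db/db mice and at 26.54, 26.65 and 30.65 CPM in treated mice. Both db/db groups were above db/m mice without overlap, and the 2 db/db groups overlapped with each other. The log2 fold change of db/db over db/m mice was 0.99 (SE 0.226), just short of the 1 that the call rule asks, although the adjusted p was under 0.1. Without db/m 2 it was 1.18 and the rule was met, as it was without db/db 1 and with totals in place of TMM scaling, and without db/m 3 it was 0.81. For treated mice it was 0.59 (SE 0.224) over db/m and -0.40 (SE 0.219) over db/db mice. Within db/db and within treated mice the order of the Xdh levels was that of the library totals. Over the 9 mice, log2(CPM + 1) of Xdh had a Pearson correlation of 0.17 with the log2 total and a Spearman correlation of 0.38 with the total. In 1 pair across groups, db/db 2, with a total of 4951030, was at 36.21 CPM and db/m 1, with 6571539, at 18.74 CPM. The part of depth in the Xdh levels was not tested. Relative to the proximal tubule markers, the db/db mice (1.868 to 2.657 CPM per 1000 CPM) were above both db/m (0.975 to 1.444) and treated mice (1.382 to 1.555).

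Set against each other in the same mouse, Nt5e was lower relative to Xdh in db/db mice than in any other mouse. The ratio of Nt5e to Xdh in CPM was 2.4, 2.91 and 1.74 in db/m mice, 0.674, 0.829 and 0.906 in db/db mice and 2.66, 3.14 and 2.6 in treated mice. All db/db mice were below 1 and all mice of the other groups above it. The value 1 has no meaning of its own, since CPM is not scaled by transcript length. Per kb of longest transcript, the db/db mean of Nt5e (7.49 CPM per kb) was above that of Xdh (4.701). The ratio of Nt5e to Adk was 0.141 to 0.216 in db/db and 0.433 to 0.482 in treated mice, also without overlap, and 0.338, 0.46 and 0.187 in db/m mice, which overlapped with both. The genes of these ratios were picked with their levels known, so that the ratios describe the 9 mice and are no test.

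**Figure D4:**
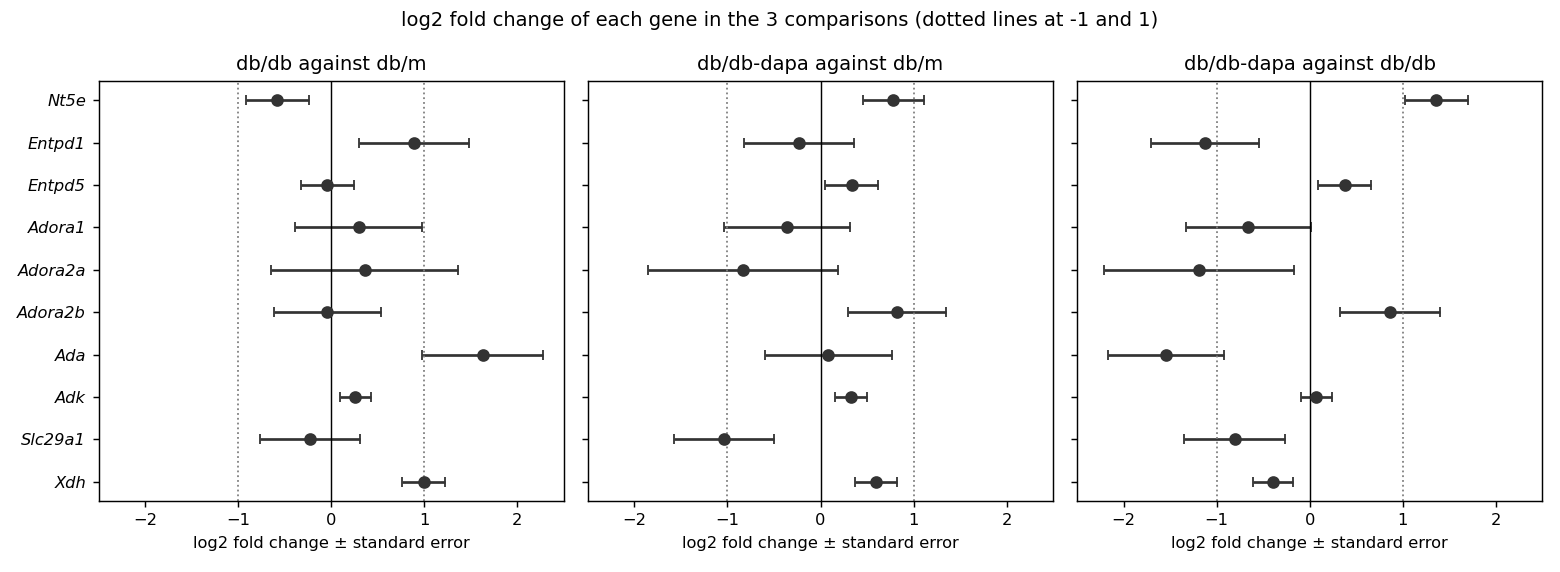
Log2 fold change of each gene with its standard error from edgeR in the 3 comparisons, with dotted lines at -1 and 1. Past 1 in size were Ada in the left panel, Slc29a1 in the middle panel, and Nt5e, Entpd1, Adora2a and Ada in the right panel (db/db-dapa against db/db).

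Over the 3 comparisons, no member met the call rule. Between db/db and db/m mice, 0 of 10 members were called, where 1.24% of all genes tested were, and 1 of 10 (Xdh) passed the adjusted p alone, where 1.67% of all did. Groups did not overlap for 2 of 10 (Ada and Xdh, both higher in db/db), where 16.4% of all genes did not. In treated against db/m mice, 0 of 10 were called (1.05% of all) and 0 of 10 passed the adjusted p alone (1.31% of all), while groups did not overlap for 4 of 10 (Nt5e, Adora2b, Adk and Xdh, all higher in treated), where 28.1% of all did not. For treated against db/db mice, 0 of 10 were called (0% of all) and 0 of 10 passed the adjusted p alone (0% of all). Groups did not overlap for 3 of 10 (Nt5e and Adora2b higher and Ada lower in treated), where 10.2% of all did not. Since the members were selected on these values, nothing is read from the counts. The comparisons share mice, so their values are not independent of each other. In the comparison of treated with db/db mice, edgeR left 0 genes called, 808 of all genes (5.19%) had an unadjusted p under 0.05, about the share that the threshold itself gives, DESeq2 called 13, and the smallest adjusted p was 0.854.

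The wider pathway was described with 84 other genes of ATP release, nucleotide breakdown, purine receptors, nucleoside transport, salvage, synthesis and urate transport, of which 77 were tested. By level per kb, the surface enzymes that act beside CD73 were led by Alpl, the alkaline phosphatase, which also cuts AMP (342.3 CPM per kb), and by Enpp2, a secreted phosphodiesterase (206.8). Intracellular nucleotidases were led by Nt5c (31.81) and Nt5c3 (25.02), and the intracellular NTPDases by Entpd4 (41.09) and Entpd6 (6.858). Of nucleoside transporters, Slc29a3, a lysosomal one, was at 26.17 and the sodium-coupled Slc28a1 at 9.553 CPM per kb, both above the 6.16 of Slc29a1. P2rx4 (13.94) and P2ry1 (1.625), receptors for extracellular nucleotides, exceeded all 3 adenosine receptors on average. Ahcy (116) and Aprt (100.9) led salvage, Pnp (49.91) and Mocs2 (32.58) purine breakdown, Paics (97.24) and Impdh2 (28.36) synthesis, and Abcc6 (6.658) and Gja1 (0.807) ATP release. The highest of the 77 genes was the urate transporter Slc22a12, which encodes URAT1, at 532.9 CPM per kb, and Slc17a1, another urate transporter, was at 343.3.

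In the wider lists, 1 of 77 genes was called between db/db and db/m mice (1.3%, against 1.24% of all genes tested), and 0 of 77 in each of the other 2 comparisons. That gene was Slc17a3, a urate and organic anion transporter, at 664.4, 675.4 and 861.5 CPM in db/m, 231.8, 267.3 and 411.4 in db/db and 576.9, 431.9 and 536.6 in treated mice. Its 3 groups did not overlap, and it fell by 1.27 on the log2 scale in db/db mice (SE 0.235, adjusted p = 0.0319, edgeR). The call was lost without db/db 2, db/m 1 or db/m 3, with log2 fold changes of -1.19, -1.34 and -1.14 and adjusted p values in edgeR of 0.113, 0.101 and 0.111. The adjusted p alone, at edgeR's fit, was also passed by Slc28a1 (log2 fold change 0.89, adjusted p = 0.0982), Abcc6 (0.76, adjusted p = 0.0719) and Entpd4 (-0.97, adjusted p = 0.098) between db/db and db/m mice, and by Slc28a1 between treated and db/m mice (0.98, adjusted p = 0.0787, edgeR); Slc28a1 was at 12.74 to 21.32 CPM in db/m, 26.51 to 38.02 in db/db and 33.48 to 34.66 in treated mice. Of the 77 genes, 41 were higher and 36 lower in db/db than in db/m mice, with a median log2 fold change of 0.045 (0.02 over all genes), and groups did not overlap for 17 (22.1%, against 16.4% of all genes). In treated against db/m mice 44 were higher and 33 lower, with a median of 0.018 (-0.022 over all genes), and 23 did not overlap (29.9%, against 28.1% of all genes). In treated against db/db mice 43 were higher and 34 lower, with a median of 0.059 (-0.0094 over all genes), and 11 did not overlap (14.3%, against 10.2% of all genes).

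**Figure D5:**
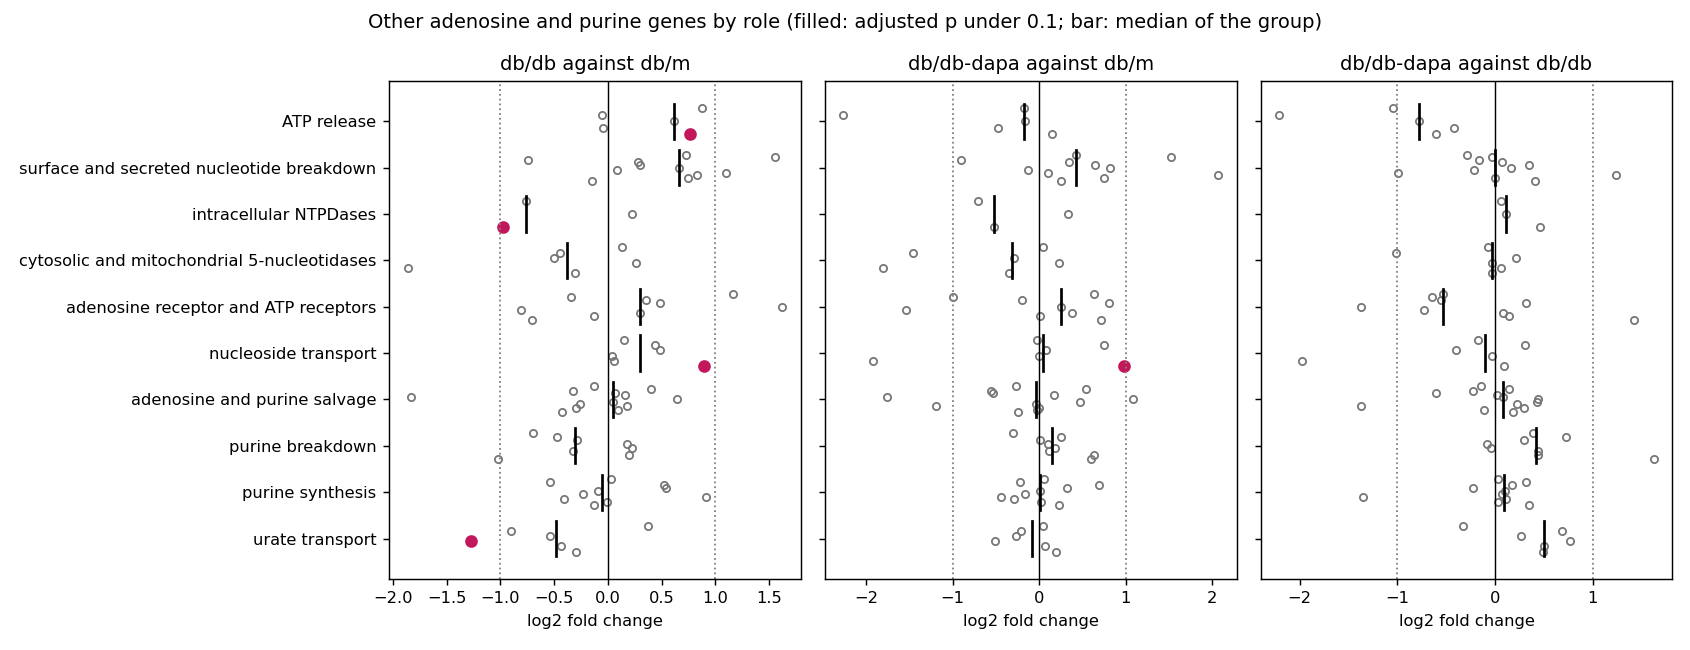
Log2 fold change of each of 77 other adenosine and purine genes by role group in the 3 comparisons, 1 point per gene, with the median of each group as a bar, filled points for an adjusted p under 0.1 (edgeR) and dotted lines at -1 and 1. The 5 filled points are Abcc6, Entpd4, Slc28a1 and Slc17a3 in the left panel (db/db against db/m) and Slc28a1 in the middle panel (db/db-dapa against db/m).

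By role, the surface and secreted enzymes had 9 of 11 members higher and 2 lower in db/db than in db/m mice, with a median log2 fold change of 0.67 and none called. Among the 9, Entpd3, Bst1 and Cd38 averaged only 0.293, 0.402 and 4.17 CPM in db/db mice. Their fold changes, which the median includes, had standard errors of 1.69, 1.12 and 0.833. Groups did not overlap for 2 higher (Alpl and Entpd8) and 1 lower (Entpd2), where 16.4% of all genes did not. Alpl was at 527.8 to 655.6 CPM in db/m, 829.7 to 1207 in db/db and 831.6 to 1106 in treated mice, without overlap to db/m mice (log2 fold change 0.75 in both comparisons, adjusted p = 0.12 and 0.123, edgeR). Of the 6 urate transporters, 5 were lower in db/db than in db/m mice with a median of -0.48, and 5 were higher in treated than in db/db mice with a median of 0.49. In the latter comparison 4 of them did not overlap (Slc17a1, Slc17a3, Slc22a12 and Abcg2, where 10.2% of all genes did not), each with an adjusted p of 0.854 in edgeR, and without db/db 3 Slc17a3 and Slc22a12 were called. The S3 markers summed to 41.8, 97.24 and 324.6 CPM in db/db mice. This was the order of Slc17a3, Slc22a12 and the library totals in these mice. Among the S3 markers, Slc5a1 (28.89, 77.43 and 170.5 CPM), Slc22a13 and Slc22a19 followed this order. Slc7a13 (9.516, 7.403 and 100.2 CPM), which made up most of the db/m sum, and Cyp7b1 did not. The S3 sum was 396.8 to 622.2 CPM in db/m mice, without overlap to db/db mice. In treated mice it was 181.6 to 294.9 CPM, within the range of db/db mice. The part of S3 cells and of depth in the urate transporters was not tested. Adora3, P2ry4, P2ry12, Nt5c1b, Uox, Urad and Allc did not pass the filter on low counts.

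Among the genes most like Nt5e over the 9 mice, out of 10515 with a mean of at least 5 CPM, were Pdss2, Spg21, Sptlc2 and Cul3, with Pearson correlations of log2(CPM + 1) of 0.971, 0.952, 0.951 and 0.944 and Spearman correlations of 0.933, 0.917, 0.967 and 0.917 (n = 9 mice). These are the highest values out of many, over points that share libraries, groups and depth, and no p is given. Their levels varied less than that of Nt5e: Pdss2, for example, was at 17.4 ± 3.51 CPM in db/m, 15.3 ± 3.73 in db/db and 24.4 ± 1.04 in treated mice, and Cul3 at 167 ± 19.6, 148 ± 14.02 and 178 ± 8.48 CPM (SD, n = 3 each). For both genes the order of the 3 group means was that of Nt5e.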

How the data were processed

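Although the name of the deposited table speaks of FPKM, it contains estimated counts made by the authors, 1 per gene and mouse: 85.9% of the values above 0 are exactly whole, and column totals differ. The labels' processing notes name TopHat2 2.0.13, Bowtie2 2.2.3, SAMtools 0.1.19, Cufflinks 2.2.1 and mm10, and the libraries were stranded and read from a single end. How the estimated counts were made, and whether strand was used, is not given in the sources used here. After rounding to whole numbers, these were tested with edgeR 4.0.16 (quasi-likelihood, TMM scaling, all 9 mice in 1 fit, Benjamini-Hochberg) in R 4.3.3, on genes at 0.3 CPM or more in at least 2 mice. The call rule asked for an adjusted p under 0.1 together with a log2 fold change past 1 in size. limma 3.58.1 and DESeq2 1.42.0 were alternatives, beside other filters and scalings, a replicate block and leaving out each mouse. The standard error was derived from the F value. Of these steps, only the calls by edgeR and DESeq2 between db/db and db/m mice were tested on simulated data.

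The members and lists were chosen with earlier results of these data known. The genes named were the members, the called list genes, the 2 highest per kb in each role group and the 5 most like Nt5e, of which 1 is not reported here. Slc28a1, Abcc6, Entpd4, Abcg2, Entpd2, Entpd3, Entpd8, Bst1, Cd38 and the ratios to markers were chosen after their values were seen. Coordinates and lengths are from GENCODE's annotation of GRCm38, where 23350 symbols matched and 1069 did not. Replicate numbers follow the labels and do not pair mice: deviations of same-numbered mice correlated between -0.32 and 0.56, and 4 of 9 mice correlated best with their own number. Replicates are separate mice.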

Additional observations from a re-analysis of the deposited data

How the results depend on the processing

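Of the 30 log2 fold changes of members, 21 kept their sign under every alternative of filter, scaling, test and mice, and the sign changed in 20 of 450 such fits. Taken relative to marker sums, an alternative chosen after seeing the data, 5 of 21 values changed sign, among them Adk in treated against db/m mice (-0.03) and Entpd1 in db/db against db/m mice (-0.07). Nt5e in treated against db/db mice lay between 1.15 and 1.64. Genes called numbered 194 in db/db against db/m mice (85 higher, 109 lower), 363 with DESeq2, 114 with only the groups compared, and 84 to 230 when mice were left out in turn (84 without db/m 1). With totals in place of TMM, the split was 141 higher and 93 lower (60.3% higher, against 43.8%), and the median of all genes moved from 0.02 to 0.13. Between treated and db/m mice 164 were called, 507 with DESeq2, 1619 with voom and quality weights, 275 without a filter, 626 with only the groups compared, and 14 to 254 when mice were left out. Between treated and db/db mice 0 were called, 13 with DESeq2, 449 with voom and quality weights, and 0 to 272 when mice were left out (272 without db/db 3, 1 without treated mouse 2).

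Members called between db/db and db/m mice numbered 0, or 1 (Xdh, 0 to 1 when mice were left out) with totals in place of TMM. Between treated and db/db mice they numbered 0, 1 with DESeq2 (Nt5e), 2 with voom and quality weights (Nt5e and Ada), and 0 to 1 when mice were left out. Called genes of the wider lists numbered 1 between db/db and db/m mice, 3 with voom, 2 with totals, and 0 to 3 when mice were left out. Between treated and db/db mice they numbered 0, 2 with voom (Cd38 and Impdh1), and 0 to 2 when mice were left out. Between treated and db/m mice they numbered 0, 1 with DESeq2 or only the groups compared (Ahcyl2), 1 with totals (Slc28a1), 7 with voom, and 0 when mice were left out. With a replicate block the counts of all genes were 185, 167 and 0, and 1 list gene (Slc28a1) was called between treated and db/m mice; the mice share only a number. The causes of these shifts were not tested. The receptors, Ada and Entpd1 had few counts.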
